A study of Mus musculus with 8 samples.

Results

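Immunoglobulin variable (V) gene segments were followed in RNA libraries of mouse articular cartilage. A V segment was taken as a gene of GENCODE type IG_V_gene with a symbol starting Ighv, Igkv or Iglv and a summed expected count of at least 10 over the 8 libraries. This rule was met by 179 of 216 segments of that type, among 52636 genes in the deposited tables, and the members comprised 90 of 113 heavy chain, 86 of 100 kappa and 3 of 3 lambda segments. Apart from gene type and symbol, the members were thus chosen by their summed counts, which are measured values. The members nearest the limit were Ighv5-15 and Igkv4-81 with 10 summed counts each and Ighv8-2 with 11, and the segments just outside were Ighv1-62-3 with 8.22 and Ighv7-4 and Ighv1-31 with 8 each. Of the 37 segments outside, 7 had no count in any library.

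Each of the 8 libraries held RNA of 10 combined articular cartilages from knee joints of male C57BL/6 mice, and there was 1 library for each combination of genotype, surgery and week. Wild-type (WT) mice and mice deficient in the osteoclast-associated receptor (Oscar-/-) underwent sham surgery or surgical destabilization of the medial meniscus (DMM), which leads to osteoarthritis, and the joints were taken at 2 or 4 weeks. The labels give an age of 10 weeks for all 8 libraries, whatever the week. No condition had a second library, so a difference between 2 libraries has no replicate check, and the p-values below measure the spread that remained after additive terms for genotype, surgery and week.

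V segments are the largest of the gene pieces from which an antibody gene is built. In a developing B cell, recombination joins 1 heavy V segment to a D and a J segment and 1 light chain V segment to a J segment, so each B cell clone transcribes essentially a single functional heavy and a single functional light chain V segment at a high level. The V part is spliced to a constant region, and plasma cells make far more of this RNA than resting B cells. In mice most antibodies carry a kappa light chain and few carry a lambda chain. In bulk RNA, fewer cells of a type and less RNA per cell cannot be told apart, and the joined junctions of single clones were not read here.

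The depth was between 13189181 and 18533609 expected counts in all genes of a library, and V segments took from 0.0207% to 0.0522% of them. Oscar was read with 42 to 118 counts in the 4 WT libraries and with 0 in the 4 Oscar-/- libraries, a result that allows up to 3 counts in each. Beside 10 chondrocyte genes that summed to between 1935 and 5133 counts per 1000000 (CPM), the libraries held 4 hemoglobin genes at between 122093 and 241114 CPM and 10 B cell surface and signaling genes at between 393 and 689 CPM, so the labelled cartilage carried blood and B lineage RNA throughout. The lane tag in the names of the deposited tables was 5 for all libraries of 2 weeks, 3 for both WT libraries of 4 weeks and 1 for both Oscar-/- libraries of 4 weeks. Week and lane cannot be told apart, nor can genotype and lane at 4 weeks.

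The 3 loci lay on chromosome 12 (heavy, 113578504 to 116000461), chromosome 6 (kappa, 67555497 to 70704177) and chromosome 16 (lambda, 19085017 to 19260859) of GRCm38. Many members resembled each other closely. The median V exon was 95.4% identical to its closest relative among all V genes and pseudogenes, and 17 of the 179 members, with 6.19% of the V counts, reached 98%. Because RSEM divides reads that 2 genes share, 105 members had counts that were not whole in at least 1 library, and the split between near-identical segments is uncertain.

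Where 4 values of a week follow each other below, both WT libraries come before both Oscar-/- libraries and sham comes before DMM within a genotype. In this order, heavy chain V segments summed to 1103, 1480, 779 and 1056 counts at 2 weeks and to 1611, 1707, 1575 and 2683 counts at 4 weeks. Scaled to CPM with the TMM factors of edgeR, the 2-week libraries lay between 60.7 and 81.2 CPM and the 4-week libraries between 103 and 149 CPM. Every 4-week library was above every 2-week library.

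Kappa segments summed to 3139, 2572, 1713 and 2214 counts at 2 weeks and to 3295, 3167, 3532 and 6253 counts at 4 weeks. In CPM the 2-week libraries spanned 134 to 193 and the 4-week libraries 211 to 346. The Oscar-/- DMM library of 4 weeks was the highest for both heavy and kappa segments. Lambda segments were far fewer, with 346, 462, 234 and 286 counts at 2 weeks and 408, 434, 338 and 429 at 4 weeks, and their CPM overlapped between the weeks (18.2 to 25.3 and 22.6 to 29.6).

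Over the 4 matched pairs, the mean log2 difference of 4 against 2 weeks was 0.73 ± 0.21 (SD) for heavy, 0.68 ± 0.43 for kappa and 0.27 ± 0.04 for lambda segments, and all 4 pairs were higher at 4 weeks in each locus. For DMM against sham the means were 0.30 ± 0.14 (higher in 4 of 4 pairs), 0.09 ± 0.42 (3 of 4) and 0.16 ± 0.08 (4 of 4) in the same order. For Oscar-/- against WT they were 0.02 ± 0.23, 0.11 ± 0.50 and -0.27 ± 0.06, so the lambda sum was lower in all 4 Oscar-/- libraries than in their WT partners while the other loci were split. Without Iglv1 the lambda difference for genotype was 0.073, so its direction rested on that segment. The genotype differences of heavy and kappa and the DMM difference of kappa were smaller than their SD and changed sign with a 4-week library left out. No test was run on these sums.

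**Figure D1:**
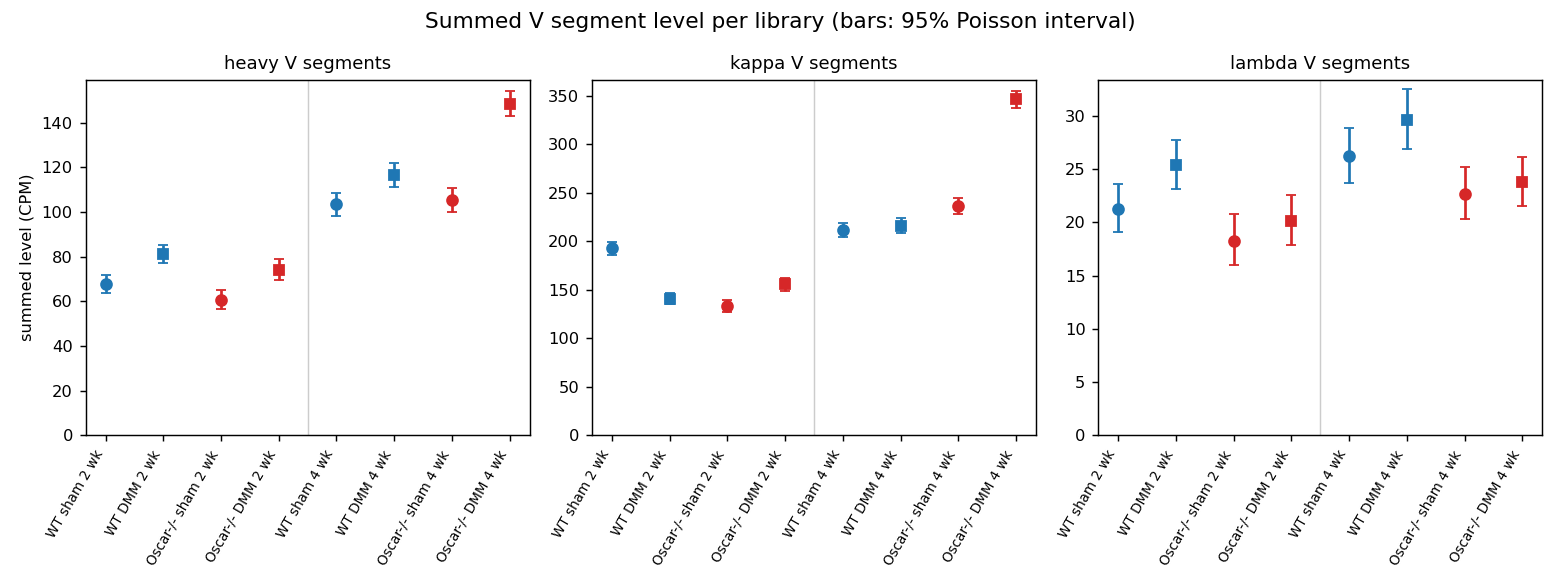
Summed heavy, kappa and lambda V segment levels (y axis, CPM) in each of the 8 libraries (x axis), with 95% Poisson intervals that cover counting error alone. Blue marks WT, red marks Oscar-/-, circles mark sham and squares mark DMM. Heavy and kappa sums at 4 weeks all lay above those at 2 weeks, and the Oscar-/- DMM library of 4 weeks reached 149 CPM for heavy and 346 CPM for kappa segments.

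The light chain V counts were mostly kappa in every library. The lambda part of all light chain V counts at 2 weeks was 9.93% (95% exact binomial interval 8.96% to 10.97%) and 15.2% (14.0% to 16.6%) in the sham and DMM libraries of WT mice, and 12.0% (10.6% to 13.5%) and 11.4% (10.2% to 12.8%) in those of Oscar-/- mice. At 4 weeks it was 11.02% (10.0% to 12.1%) and 12.1% (11.0% to 13.2%) in the WT libraries and 8.73% (7.86% to 9.67%) and 6.42% (5.84% to 7.03%) in the Oscar-/- libraries. The Oscar-/- libraries of 4 weeks were thus the lowest of the 8, with intervals that did not reach those of the WT libraries of 4 weeks. The interval of the Oscar-/- sham library of 4 weeks overlapped that of the WT sham library of 2 weeks. By constant region counts the lambda part was 14.5% and 17.1% in WT and 16.4% and 16.5% in Oscar-/- libraries at 2 weeks. At 4 weeks it was 11.7% and 11.8% in WT and 10.9% and 9.60% in Oscar-/- libraries, so both genotypes were lower at 4 weeks by that measure.

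Iglv1 carried most of the lambda signal. It had 262, 346, 189 and 210 counts at 2 weeks and 334, 367, 247 and 290 at 4 weeks, and made up from 67.6% to 84.6% of the lambda counts. Each Oscar-/- library was below its WT partner, by between 0.13 and 0.64 on the log2 scale, but the WT and Oscar-/- ranges overlapped. The log2 fold change for genotype was -0.38 (adjusted p = 0.999, edgeR's quasi-likelihood test with Benjamini-Hochberg adjustment). Iglv2 ranged from 20 to 92 counts and Iglv3 from 20 to 54.

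Iglv1 and Iglv2 differ at 9 of 305 bases of the V exon (97.0% identity), and each had counts that were not whole in 5 libraries. The last 300 bases of each exon are shown from the transcripts of GENCODE M21 on GRCm38, with the 8 bases in this stretch that differ between them in capitals. The stretch lies at chr16:19085017-19085316 for Iglv1 and at chr16:19260401-19260700 for Iglv2, both on the minus strand.
Iglv1: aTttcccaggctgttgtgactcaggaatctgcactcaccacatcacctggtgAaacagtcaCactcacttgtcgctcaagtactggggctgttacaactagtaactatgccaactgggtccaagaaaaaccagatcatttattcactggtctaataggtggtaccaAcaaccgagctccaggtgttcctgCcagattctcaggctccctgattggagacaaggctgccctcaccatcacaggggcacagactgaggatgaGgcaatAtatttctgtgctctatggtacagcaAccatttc
Iglv2: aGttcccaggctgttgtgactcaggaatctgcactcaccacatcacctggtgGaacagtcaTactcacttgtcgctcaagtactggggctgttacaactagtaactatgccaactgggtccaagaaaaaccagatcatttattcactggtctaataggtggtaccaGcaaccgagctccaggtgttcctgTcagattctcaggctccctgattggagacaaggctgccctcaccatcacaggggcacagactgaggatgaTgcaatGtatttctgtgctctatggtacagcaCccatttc

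The usage of heavy and kappa segments was broad. The effective number of segments, which is the inverse of the chance that 2 counts drawn at random come from the same segment, ranged from 23.4 to 41.3 for the 90 heavy and from 11.5 to 31.6 for the 86 kappa members. The WT sham library of 2 weeks was the lowest for both loci. Thinned to a common 778 heavy counts, the libraries held between 76.4 and 84.1 heavy segments, and thinned to 1712 kappa counts between 77.9 and 81.8 kappa segments, so most members were present everywhere at low level. Over all 8 libraries 139 members had a count in every library.

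By length-scaled level, the leading kappa segments were Igkv15-103 at a mean of 73.3 TPM over the 8 libraries, Igkv1-110 at 60.7 TPM, Igkv10-96 at 58.8 TPM, Igkv1-117 at 51.8 TPM and Igkv19-93 at 42.1 TPM. Iglv1 stood at 72.9 TPM, beside the leading kappa segment. The leading heavy segments were lower, with Ighv1-26 at 24.99 TPM, Ighv1-81 at 21.4 TPM, Ighv7-1 at 17.6 TPM, Ighv8-8 at 17.4 TPM and Ighv1-64 at 17.3 TPM. The Ighv1 family, the large J558 family of the mouse, held 45 members and from 50.5% to 67.4% of the heavy counts. Ighv5-2, the member nearest the D segments and also called 81X, was near the bottom with 0 to 6 counts per library.

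In the WT sham library of 2 weeks, which had the low effective number, several segments held high shares. Igkv15-103 had 682 counts there and 146, 151 and 102 in the other 2-week libraries, and 372, 94, 317 and 388 counts at 4 weeks. It made up 21.7% (20.3% to 23.2%) of the kappa counts of that library and from 2.97% to 11.3% in the others. Igkv10-96 had 495 counts in WT sham at 2 weeks against 127 to 303 elsewhere and made up 15.8% (14.5% to 17.1%) of its kappa counts. On the heavy side Ighv1-64 had 137 counts there, against 32 to 111 elsewhere, and took 12.4% (10.5% to 14.5%). Ighv7-1 took 8.61% (7.02% to 10.4%) there, against 1.23% to 6.27% elsewhere. Ighv1-81 took 7.52% (6.04% to 9.24%), against 2.86% to 6.82% elsewhere. The same library had the highest hemoglobin sum, 241114 CPM, and the part of that in these shares was not tested.

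The 3' ends of these and other leading segments show the codons for Tyr, Tyr or Phe, and Cys that close the last framework of nearly every V domain. The last 60 bases of the V exon are given from GENCODE M21 on GRCm38 with those codons in capitals, for segments on which the results below turn. The positions are chr6:68437866-68437925 on the plus strand for Igkv15-103, and on the minus strand chr6:68631963-68632022 for Igkv10-96, chr6:68736297-68736356 for Igkv19-93, chr6:69304834-69304893 for Igkv4-68, chr6:69438218-69438277 for Igkv4-59, chr12:115208095-115208154 for Ighv1-55 and chr12:115952538-115952597 for Ighv1-82.
Igkv15-103: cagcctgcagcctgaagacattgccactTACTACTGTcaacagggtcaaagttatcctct
Igkv10-96: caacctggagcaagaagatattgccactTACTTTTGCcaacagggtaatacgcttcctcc
Igkv19-93: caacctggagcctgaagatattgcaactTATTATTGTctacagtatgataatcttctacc
Igkv4-68: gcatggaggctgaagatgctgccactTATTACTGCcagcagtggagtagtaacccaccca
Igkv4-59: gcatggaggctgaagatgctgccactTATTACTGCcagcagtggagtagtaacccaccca
Ighv1-55: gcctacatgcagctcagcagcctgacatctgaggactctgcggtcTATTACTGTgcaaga
Ighv1-82: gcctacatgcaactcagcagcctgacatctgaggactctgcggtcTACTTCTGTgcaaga
The form TATTACTGT was found in the last 60 bases of 85 of the 179 members (47.5%) and of 39.4% of all 376 V genes and pseudogenes of the annotation, searched on the transcript strand only. TATTTCTGT was found in 32 members (17.9%) and TATTACTGC in 23 (12.8%). Igkv4-68 and Igkv4-59 share the same last 60 bases.

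With edgeR and all 8 libraries, V segments were called in the comparison of 4 with 2 weeks alone. Of the 140 members with at least 40 summed counts, 24 were higher at 4 weeks and 0 were lower at an adjusted p under 0.05 (edgeR's quasi-likelihood test), beside 6.84% of all 16363 features tested that were called in either direction, 4.7% higher and 2.14% lower. The 24 comprised 7 of 65 heavy, 17 of 72 kappa and 0 of 3 lambda segments, with log2 fold changes from 0.61 to 5.29. For the lower direction 1 member had an unadjusted p under 0.05, beside 12.1% of all features. The median log2 fold change was 0.61 over the 140 members and -0.02 over all features, and 114 members were above 0. The other 39 members were too low to be tested.

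Igkv12-46 had the lowest p. Its counts were 26, 25, 21 and 23 at 2 weeks and 132, 131, 108 and 192 at 4 weeks. Within each week the 4 libraries were close to each other, and the weeks were far apart. The log2 fold change was 2.50 (SE 0.17, adjusted p = 7.6e-05, edgeR), and it held between 0.828% and 1.23% of the kappa counts at 2 weeks and between 3.06% and 4.14% at 4 weeks.

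Among heavy segments Ighv1-55 had the lowest p. It had 22, 32, 20 and 38 counts at 2 weeks and 87, 87, 80 and 102 at 4 weeks, with a log2 fold change of 1.64 (SE 0.19, adjusted p = 0.00175, edgeR). Every 4-week library was above every 2-week library. Igkv19-93 had 50, 65, 41 and 49 counts at 2 weeks and 194, 184, 121 and 489 at 4 weeks, and became the leading kappa segment of the Oscar-/- DMM library with 7.82% of its kappa counts. Its log2 fold change was 2.12 (SE 0.27, adjusted p = 0.00275, edgeR).

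Igkv4 segments were frequent among the calls, with 6 of 17 tested. Igkv4-70 had 3, 3, 7 and 4 counts at 2 weeks and 29, 43, 29 and 47 at 4 weeks (log2 fold change 3.02, SE 0.36, adjusted p = 0.00175, edgeR). It met the summed count limit for testing only through its counts at 4 weeks, so this p-value is not independent of that choice. Igkv4-68 had 19, 25, 25 and 26 counts at 2 weeks, 46 and 51 in the WT libraries of 4 weeks, and 104 and 145 in the Oscar-/- libraries of 4 weeks (log2 fold change 1.69, adjusted p = 0.00143). In Igkv4-68 the weeks did not overlap, and the Oscar-/- libraries were the higher ones at 4 weeks. Igkv4-59 showed the opposite order, with 51, 65, 18 and 45 counts at 2 weeks, 149 and 206 in the WT libraries and 52 and 95 in the Oscar-/- libraries of 4 weeks (log2 fold change 1.44, adjusted p = 0.00531). Igkv4-70 and Igkv4-59 are 97.3% identical, and all 3 segments had counts that were not whole.

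The remaining calls of lowest p followed. Ighv1-82 had 14 to 23 counts at 2 weeks, 35 and 34 in WT and 130 and 216 in Oscar-/- libraries at 4 weeks (log2 fold change 2.14, adjusted p = 0.00824, edgeR). Ighv8-8 had 23 to 45 counts at 2 weeks and 56 to 161 at 4 weeks (1.53, adjusted p = 0.00826). Igkv3-5 rose by 2.10 (adjusted p = 0.0106) and Igkv4-61 by 2.47 (adjusted p = 0.0108), the former at 98.1% identity to Igkv3-10. In 12 of the 24 called segments each 4-week library was above each 2-week library in CPM. Over all 140 members tested, 21 (15.0%) had all 4-week libraries above all 2-week libraries and 0 below, beside 9.68% and 7.56% of all features.

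**Figure D2:**
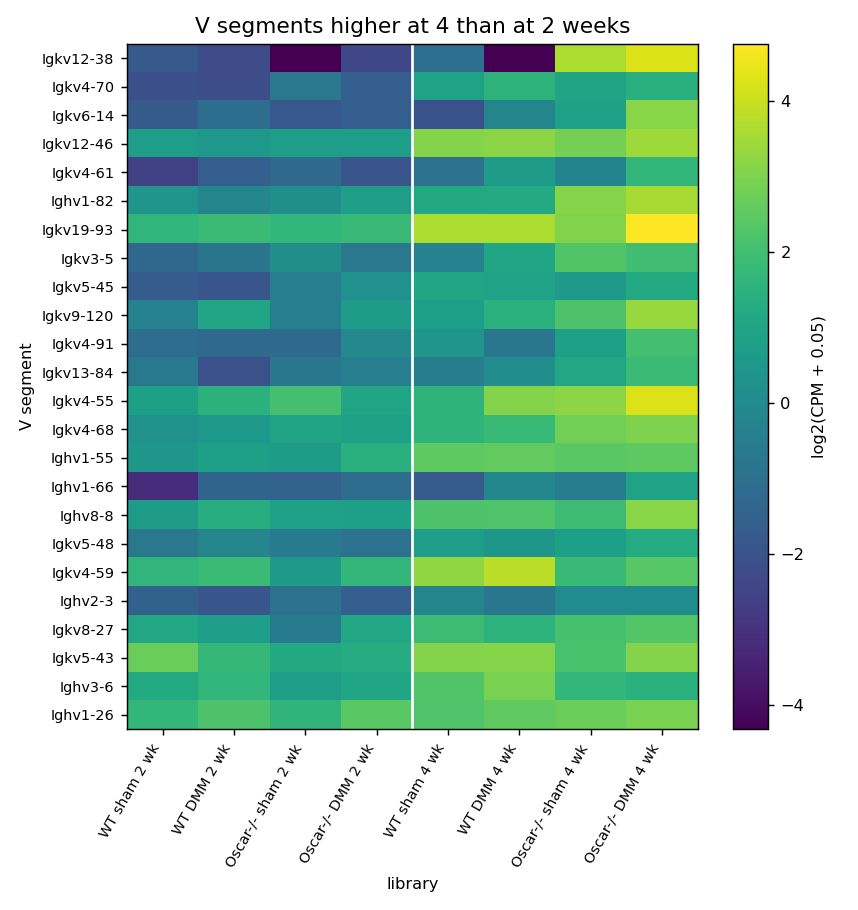
Heat map of the 24 V segments (rows) that were higher at 4 than at 2 weeks, in the 8 libraries (columns), coloured by log2(CPM + 0.05). A white line separates 2 weeks (left) from 4 weeks (right). Igkv12-46 was even within each week, whereas Igkv12-38, in the top row, was high only in the 2 Oscar-/- libraries of 4 weeks.

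The week calls, of V segments and of all features, depended on which libraries were used. Leaving out each library in turn left from 11 to 24 V segment calls, while 2.02% to 5.71% of all features were called, down from 6.84%. In every alternative that gave them an adjusted p, 9 of the 24 segments stayed past the threshold. These were Ighv1-55, Ighv1-82, Ighv8-8, Igkv12-46, Igkv19-93, Igkv3-5, Igkv4-59, Igkv4-68 and Igkv4-70. Without the Oscar-/- DMM library of 2 weeks 11 calls remained (7.86% of the members, beside 2.54% of all features), all among the 24. Without the WT sham library of 4 weeks 13 were made (9.29%, beside 2.02%). Without the Oscar-/- sham library of 4 weeks there were 14 (10.0%, beside 2.73%) and without that of 2 weeks 15 (10.7%, beside 3.63%).

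Igkv12-38 was singled out after its values were seen, because its log2 fold change was the largest of the called segments. It had 4, 3, 0 and 2 counts at 2 weeks, 7 and 0 in the WT sham and DMM libraries of 4 weeks, and 186 and 349 in the Oscar-/- sham and DMM libraries of 4 weeks. Both Oscar-/- libraries of 4 weeks were high and the other 6 were at or near 0. The lower of the 2 was 27.7 times as high in CPM as the highest of the other 6, and the Oscar-/- DMM library of 4 weeks was at least 94.4-fold higher than the WT DMM library of 4 weeks, at a floor of 3 counts.

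Igkv12-38 made up 5.27% (4.55% to 6.05%) and 5.58% (5.03% to 6.18%) of the kappa counts of the Oscar-/- sham and DMM libraries of 4 weeks. The segment met the summed count limit for testing only through these libraries, so its p-values are not independent of that choice. The additive fit gave a log2 fold change of 5.29 for week (SE 0.94, adjusted p = 0.0115, edgeR) and of 4.78 for genotype (SE 0.88, adjusted p = 0.366). A genotype by week term, added after these values were seen, gave an adjusted p of 0.9999 (unadjusted p = 0.00233). The week call was lost without the Oscar-/- DMM library of 2 weeks or either Oscar-/- library of 4 weeks, and with DESeq2 (adjusted p = 0.254), limma (0.0642) and the robust edgeR fit (0.0555), and its adjusted p ranged from 0.00385 to 0.254 over all alternatives.

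The exon of Igkv12-38 is 83.9% identical to that of Igkv12-46, with 48 of 298 bases different, and no other V gene came closer to it than Igkv12-44 at 85.6%. Its counts were whole in all libraries. Both exons are shown from GENCODE M21 on GRCm38, at chr6:69943186-69943483 for Igkv12-38 (ENSMUSG00000076570.6) and chr6:69764523-69764820 for Igkv12-46 (ENSMUSG00000076564.2), each on the minus strand, with the bases that differ between them in capitals.
Igkv12-38: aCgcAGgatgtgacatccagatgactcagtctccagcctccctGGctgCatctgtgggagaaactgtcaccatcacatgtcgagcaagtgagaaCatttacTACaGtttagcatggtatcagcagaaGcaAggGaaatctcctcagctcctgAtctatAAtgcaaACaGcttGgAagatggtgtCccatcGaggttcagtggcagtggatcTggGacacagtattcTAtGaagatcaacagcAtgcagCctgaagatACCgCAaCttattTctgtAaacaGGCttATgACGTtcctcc
Igkv12-46: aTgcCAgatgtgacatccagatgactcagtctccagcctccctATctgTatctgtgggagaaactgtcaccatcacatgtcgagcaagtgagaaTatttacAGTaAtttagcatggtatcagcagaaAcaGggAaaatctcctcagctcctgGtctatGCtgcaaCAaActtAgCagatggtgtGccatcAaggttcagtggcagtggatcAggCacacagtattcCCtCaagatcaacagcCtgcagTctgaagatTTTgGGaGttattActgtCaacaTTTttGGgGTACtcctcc

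Other segments were also highest in the Oscar-/- libraries of 4 weeks. Both of these libraries were above the other 6 for 30 of the 140 members tested (21.4%), beside 4.01% of all features, and below the other 6 for 0 members, beside 3.14%. The 2 libraries also had the highest kappa sums of all, 236 and 346 CPM, so these numbers are not independent of their V level. Members were chosen by summed counts that include these libraries. The gaps went down to 1.01 times. Ighv1-82 had the second largest gap, since its lower Oscar-/- library of 4 weeks was 3.74 times as high in CPM as the highest of the other 6. For the WT libraries of 4 weeks the number above the other 6 was 10 (7.14%, beside 6.62% of all features), with Igkv4-59 and Igkv12-41 having the widest gaps at 1.82 times each. The 2-week libraries were above the others for 3 members in WT (2.14%, beside 2.85%) and 0 in Oscar-/- (beside 3.85%). Below the other 6 were 8 members for the WT libraries of 2 weeks (5.71%, beside 3.58%), 11 for the Oscar-/- libraries of 2 weeks (7.86%, beside 6.45%) and 4 for the WT libraries of 4 weeks (2.86%, beside 6.26%).

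The profile of V segments was also most alike in that pair. The Spearman correlation of log2 CPM over the 140 members, given as a description since all libraries share the same genes, was 0.87 between the sham and DMM libraries of Oscar-/- mice at 4 weeks. This was the highest of the 28 pairs of libraries, and the next were WT DMM and Oscar-/- DMM at 2 weeks with 0.82 and WT sham and DMM at 4 weeks with 0.79. The 12 pairs of the same week ranged from 0.62 to 0.87 and the 16 pairs of different weeks from 0.61 to 0.73. The 2 libraries of each genotype at 4 weeks also shared a lane tag. Depth differed as well, since the sham and DMM libraries of Oscar-/- mice at 4 weeks had the largest V sums, 5445 and 9365 counts. The Oscar-/- sham library of 2 weeks had the smallest, 2726 counts, and its correlations with the others were 0.62 to 0.69. The part of depth in these values was not tested.

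**Figure D3:**
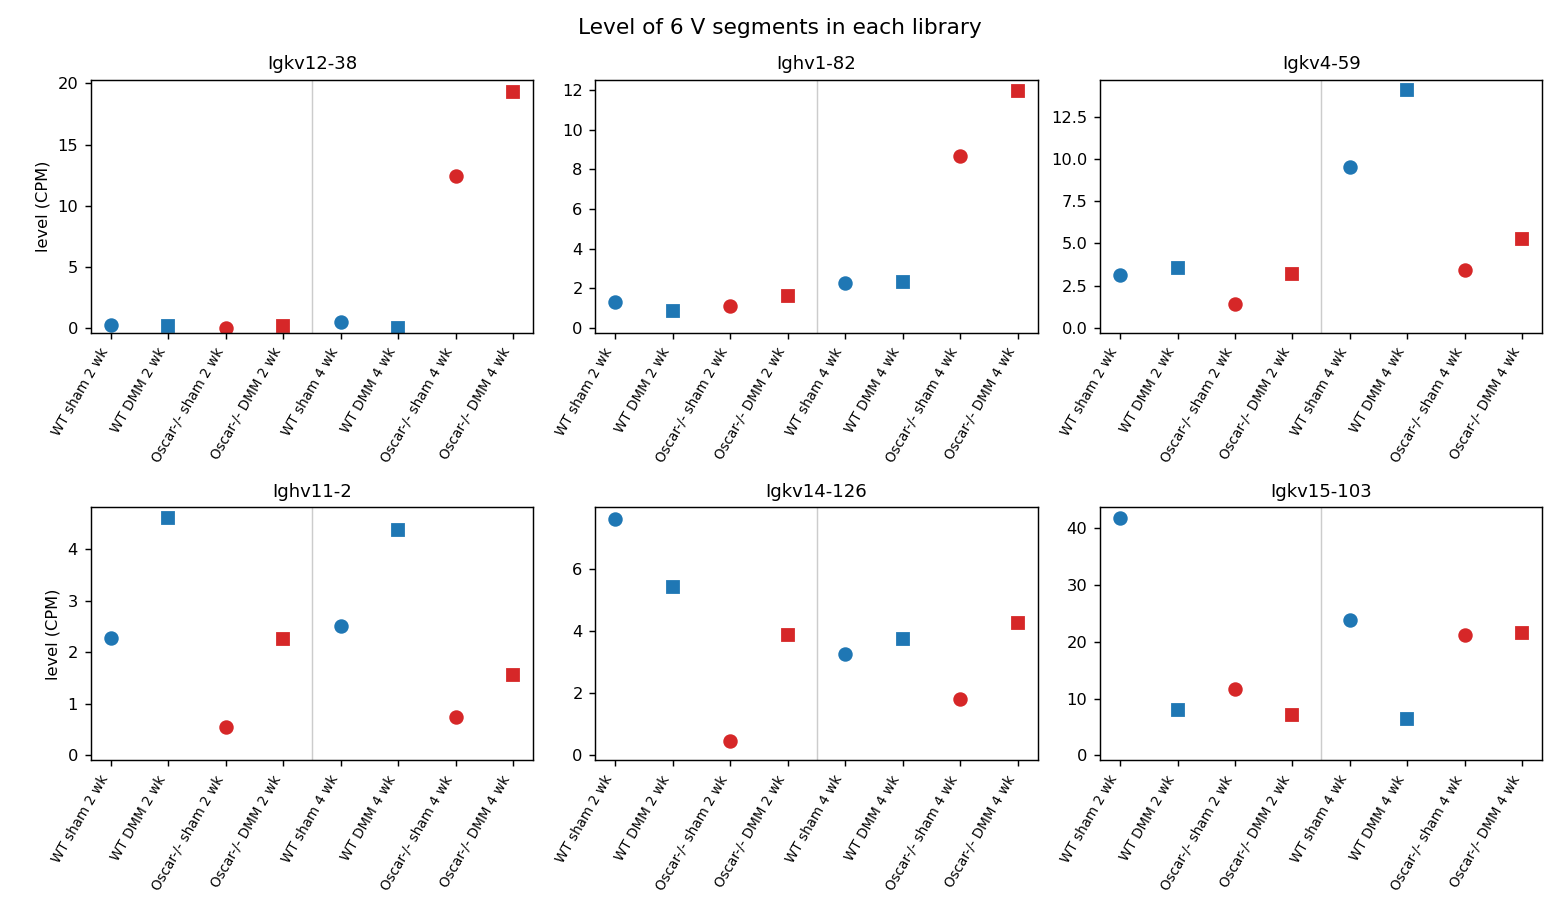
Level of 6 V segments (y axis, CPM, a separate scale for each) in the 8 libraries (x axis), with blue for WT, red for Oscar-/-, circles for sham and squares for DMM. Igkv12-38 and Ighv1-82 were high in both Oscar-/- libraries of 4 weeks, Igkv4-59 in both WT libraries of 4 weeks, Ighv11-2 was lower in each Oscar-/- library than in its WT partner, and Igkv15-103 was highest in the WT sham library of 2 weeks.

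Kappa usage along the locus differed between the weeks. The 86 kappa members were divided by their order on the chromosome into 29 nearest the J segments, 29 in the middle and 28 farthest away. The farthest segments held 66.8%, 54.1%, 53.8% and 56.2% of the kappa counts at 2 weeks and 48.7%, 39.1%, 45.3% and 46.2% at 4 weeks. The middle segments, with all 23 Igkv4 members among them, held from 10.1% to 14.4% at 2 weeks and from 19.5% to 25.6% at 4 weeks. Neither range overlapped between the weeks. In CPM all 3 groups of segments were mostly higher at 4 weeks. The farthest segments summed to 129, 76.4, 71.9 and 87.4 CPM at 2 weeks and to 103, 84.4, 107 and 160 CPM at 4 weeks, higher in 3 of 4 pairs, whereas the middle and nearest segments were higher in all 4 pairs. The Igkv12 family held 3.06% to 4.79% of the kappa counts at 2 weeks and 8.01% to 12.9% at 4 weeks. Without Igkv12-38 the family held 2.93% to 4.70% of all kappa counts at 2 weeks and 4.61% to 12.9% at 4 weeks, which overlapped through the Oscar-/- sham library of 4 weeks (4.87% of the kappa counts other than Igkv12-38), an alternative chosen after seeing the data.

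Heavy segments did not separate the weeks in this way. The 30 members farthest from the D and J segments held 35.7% to 44.1% of the heavy counts at 2 weeks and 36.0% to 52.7% at 4 weeks. The 2 highest values, 49.9% and 52.7%, were those of the Oscar-/- libraries of 4 weeks, in which Ighv1-82, a member of this block, held 8.25% and 8.05% of the heavy counts.

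**Figure D4:**
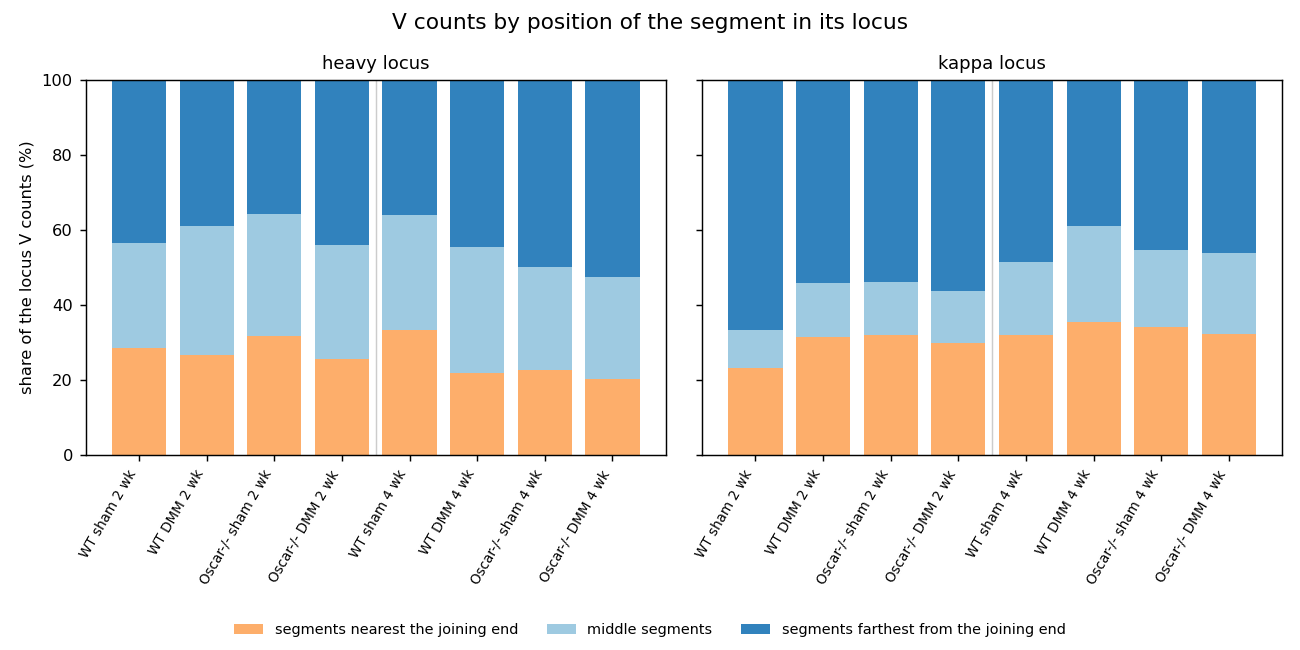
Stacked bars of the share of heavy (left) and kappa (right) V counts, in percent, held by segments near to, in the middle of and far from the joining end of the locus, in each of the 8 libraries. The far kappa segments held between 53.8% and 66.8% at 2 weeks and between 39.1% and 48.7% at 4 weeks, whereas the heavy shares overlapped.

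Constant region and plasma cell genes were compared with the V segments, since V RNA ends in a constant region. Of 11 constant region genes tested, 3 were higher at 4 weeks and 0 lower by edgeR, with a median log2 fold change of 0.37 and 1 lower at an unadjusted p under 0.05. Igha, the constant region of IgA, had 2524, 3112, 1512 and 2236 counts at 2 weeks and 5007, 3999, 3200 and 5629 at 4 weeks (log2 fold change 0.91, SE 0.12, adjusted p = 0.00263, edgeR). Ighg2c (1.11, adjusted p = 0.0194) and Ighg2b (0.46, adjusted p = 0.0469) were also higher. Ighm, the constant region of IgM and the most abundant heavy chain gene, held from 64.5% to 77.8% of the heavy constant counts. Ighe was at 0 in 6 of the 8 libraries.

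Jchain, which links IgA and IgM into polymers, had 1325, 1177, 700 and 809 counts at 2 weeks and 1985, 1943, 1963 and 3212 at 4 weeks. All 4-week libraries were above all 2-week libraries, with a log2 fold change of 1.15 (SE 0.15, adjusted p = 0.00276, edgeR). In the list of 10 plasma cell genes, 9 were tested with a median log2 fold change of -0.07, and Jchain and Slpi were higher while Irf4 and Mzb1 were lower. The summed list lay between 356 and 438 CPM at 2 weeks and between 458 and 507 CPM at 4 weeks. Jchain alone made up 54.6 to 81.4 CPM of it at 2 weeks and 127 to 178 CPM at 4 weeks. Xbp1, another large part of the sum, overlapped between the weeks (131 to 157 and 133 to 139 CPM). The higher sum is thus not a rise of the whole list.

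Pro-B and pre-B genes, and most of the B cell surface and signaling genes, moved in the other direction. Of 9 pro-B and pre-B genes (median log2 fold change -0.53), 4 were lower at 4 weeks and 0 higher by edgeR, with 0 higher at an unadjusted p under 0.05. Among the lower ones were Igll1 (log2 fold change -0.75, adjusted p = 0.00467) and Vpreb3 (-0.65, adjusted p = 0.00404), a part of the surrogate light chain and a protein of the same early stage. Of 10 B cell surface and signaling genes (median -0.40) 6 were lower and 1, Cr2, was higher. Cd79a and Cd79b, the signaling subunits of the B cell receptor, had log2 fold changes of -0.57 (adjusted p = 0.00323) and -0.61 (adjusted p = 0.00611). The summed surface list ranged from 519 to 689 CPM at 2 weeks and from 393 to 507 CPM at 4 weeks.

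Set against constant region counts, the mean log2 difference of 4 against 2 weeks was 0.31 for heavy and 0.12 for kappa V sums, below the 0.73 and 0.68 in CPM, and 0.34 for lambda, above its 0.27 in CPM. The heavy V sum was 6.07 to 7.92 counts per 100 heavy constant counts at 2 weeks and 8.22 to 8.67 at 4 weeks, with no overlap. The kappa V sum was 33.8 to 35.8 per 100 Igkc counts at 2 weeks and 34.7 to 40.1 at 4 weeks, which overlapped. The lambda V sum was 22.7 to 29.5 per 100 lambda constant counts at 2 weeks and 25.2 to 35.5 at 4 weeks, which also overlapped.

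Markers of other cells were compared between the weeks as well, and only T cell genes had calls. T cell genes, from cells that carry no immunoglobulin, were higher, with 3 of 10 past the threshold and a median log2 fold change of 1.07, and a list sum of 21.3 to 32.2 CPM at 2 weeks and 38.1 to 68.5 CPM at 4 weeks. The 10 chondrocyte genes had a median of -0.58 with 0 past the threshold by edgeR and 6 lower at an unadjusted p under 0.05, and summed to between 2434 and 5133 CPM at 2 weeks and between 1935 and 3280 CPM at 4 weeks. The 4 hemoglobin genes had a median of -0.37 with 0 past the threshold and 1 lower at an unadjusted p under 0.05, and summed to between 150971 and 241114 CPM at 2 weeks and between 122093 and 190577 CPM at 4 weeks. The part of these cell markers in the V segment calls was not tested.

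**Figure D5:**
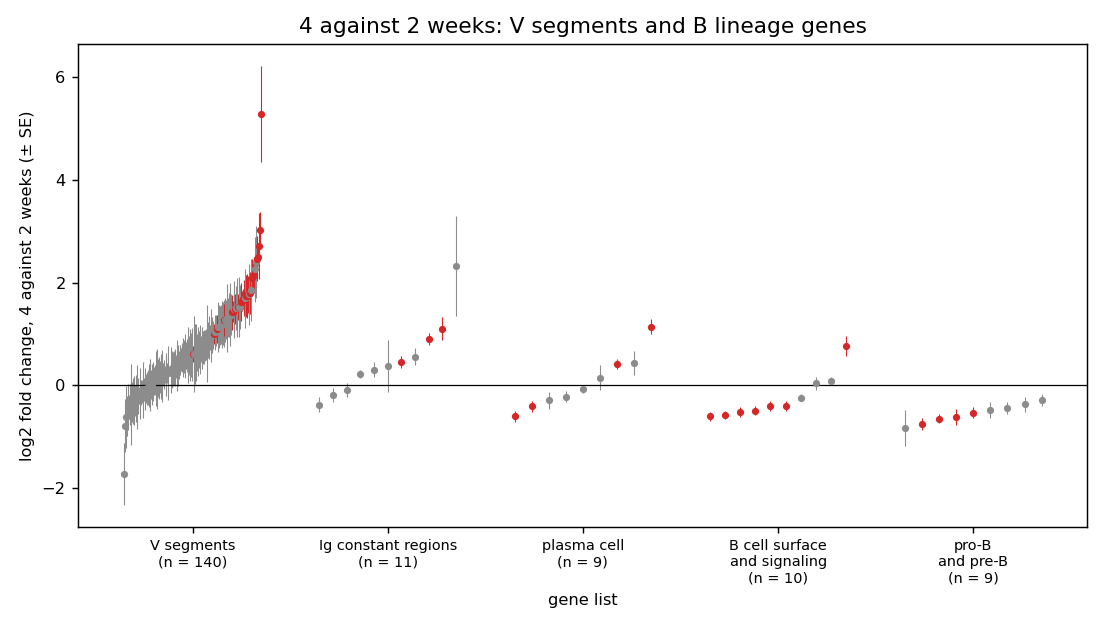
Log2 fold change of 4 against 2 weeks (y axis, bars show an SE derived from edgeR's fold change and F statistic) for the 140 V segments tested and for constant region, plasma cell, B cell surface and pro-B and pre-B genes (x axis), with genes past an adjusted p of 0.05 in red. The 24 called V segments all lay above 0, whereas 6 of the 7 called B cell surface genes and all 4 called pro-B and pre-B genes lay below it.

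The comparison of Oscar-/- with WT libraries called 0 of the 140 V segments with edgeR, beside 0.0428% of all features (0.0122% higher and 0.0306% lower), while 32 members (22.9%) had an unadjusted p under 0.05, beside 3.01% of all features. Of these 32 members, 23 were higher in Oscar-/- libraries (16.4%, beside 1.53% of all features) and 9 lower (6.43%, beside 1.49%). DESeq2 called 2 (1.43%, beside 0.0978% of all features) and limma 1 (0.714%, beside 0.0367%), all lower in Oscar-/- libraries. The median log2 fold change was 0.15 over the members and 0.01 over all features. Taken within a week, the median over members of the Oscar-/- against WT difference was -0.10 after sham surgery and -0.04 after DMM at 2 weeks, where all libraries carried the same lane tag, and 0.06 and 0.36 at 4 weeks. Constant region and B lineage lists had 0 genes past the threshold for genotype, by edgeR.

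Ighv11-2 had the lowest p for genotype among the members and was singled out after its values were seen. Together with Igkv14-126 it forms a receptor that is known in mice from B-1a cells that bind phosphatidylcholine. Other V pairs of such cells were not followed, and a difference in the number of B-1a cells was not tested. Ighv11-2 had 37 and 84 counts in the WT sham and DMM libraries and 7 and 32 in the Oscar-/- libraries at 2 weeks, and 39 and 64 against 11 and 28 at 4 weeks. In CPM all 4 Oscar-/- libraries (0.546 to 2.25) were below all 4 WT libraries (2.27 to 4.603), with the smallest gap between the Oscar-/- DMM and the WT sham library of 2 weeks.

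The log2 fold change of Ighv11-2 for genotype was -1.48 (SE 0.23, adjusted p = 0.107, edgeR), and the matched differences were -1.98 and -1.02 at 2 weeks and -1.72 and -1.48 at 4 weeks for sham and DMM. DESeq2 gave an adjusted p of 0.0137 and limma 0.0338, and over all alternatives the adjusted p ranged from 0.0137 to 0.405. Ighv11-2 also had the lowest p for surgery, being higher after DMM in all 4 pairs by 0.80 to 1.97 on the log2 scale (log2 fold change 1.12, adjusted p = 0.208). Its exon is 98.7% identical to that of Ighv11-1, and the division of reads between them is uncertain. Of all members tested, 2 were lower and 4 higher in every Oscar-/- than in every WT library, beside 0.636% and 0.703% of all features. The other lower one was Igkv6-25 and the higher ones were Ighv5-9, Igkv3-2, Igkv6-23 and Igkv1-135.

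Igkv14-126, its known light chain partner, had 124 and 99 counts in the WT sham and DMM libraries and 6 and 55 in the Oscar-/- libraries at 2 weeks, and 51 and 55 against 27 and 77 at 4 weeks. The Oscar-/- sham libraries were the lowest of the 8 and the WT libraries of 2 weeks the highest, but the genotypes overlapped after DMM. The log2 fold change for genotype was -0.98 (adjusted p = 0.999, edgeR).

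The last 300 bases of the exon of Ighv11-2 (ENSMUSG00000096108.2, chr12:114048241-114048540, minus strand) and the whole exon of Igkv14-126 (ENSMUSG00000094345.2, chr6:67896345-67896642, plus strand) are shown from GENCODE M21 on GRCm38, with the codons for Tyr, Tyr or Phe, and Cys in capitals.
Ighv11-2: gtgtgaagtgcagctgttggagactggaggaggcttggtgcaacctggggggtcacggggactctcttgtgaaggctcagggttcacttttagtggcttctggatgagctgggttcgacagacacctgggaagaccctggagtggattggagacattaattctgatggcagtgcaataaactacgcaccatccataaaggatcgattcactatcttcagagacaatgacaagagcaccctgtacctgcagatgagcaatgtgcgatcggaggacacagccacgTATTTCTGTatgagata
Igkv14-126: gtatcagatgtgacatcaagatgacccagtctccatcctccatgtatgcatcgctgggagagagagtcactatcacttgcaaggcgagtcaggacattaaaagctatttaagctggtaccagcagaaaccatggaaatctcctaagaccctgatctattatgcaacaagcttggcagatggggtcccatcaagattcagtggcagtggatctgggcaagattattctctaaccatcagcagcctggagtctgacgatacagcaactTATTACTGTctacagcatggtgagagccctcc

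DMM surgery changed 0 of the 140 V segments past the threshold by edgeR, beside 0% of all features, and 26 members (18.6%) had an unadjusted p under 0.05, of which 23 were higher, beside 6.42% of all features. DESeq2 and limma called 0 as well, beside 0.409% and 0.0244% of all features. The median log2 fold change was 0.30 over the members and 0.00 over all features, and 103 members were above 0. Taken by pairs, the median over members of DMM against sham was 0.24 in WT and 0.27 in Oscar-/- mice at 2 weeks and 0.21 and 0.42 at 4 weeks, with 85 to 108 of 140 members higher. For 0 members did all 4 DMM libraries lie above, or all 4 below, the 4 sham libraries, beside 1.34% and 0.886% of all features. B cell surface genes had a median of 0.32 and pro-B and pre-B genes of 0.28 for DMM, with 0 past the threshold by edgeR. At an unadjusted p under 0.05, 8 of 10 surface genes and 5 of 9 pro-B and pre-B genes were higher and 0 were lower. Of all features 3.83% were higher and 2.59% lower at that limit.

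The genotype by surgery interaction, which tests whether the response to DMM differed between Oscar-/- and WT mice, was past the threshold for 0 members by edgeR, beside 2.35% of all features (0.593% positive and 1.75% negative), and 17 (12.1%) had an unadjusted p under 0.05, beside 20.9% of all features. Limma called 0 (beside 0% of all features), and DESeq2 called 0 (beside 2.57%) with no adjusted p for 135 of the 140. The lowest p belonged to Igkv10-96 (1.83, SE 0.55, adjusted p = 0.103) and Igkv15-103 (2.00, SE 0.61, adjusted p = 0.107). In WT mice Igkv15-103 was lower after DMM by 2.38 at 2 weeks and 1.89 at 4 weeks on the log2 scale, and in Oscar-/- mice the differences were -0.71 and 0.02. Without the WT sham library of 4 weeks 8 members (5.71%) were called, Igkv10-96 (edgeR adjusted p = 0.0016) and Igkv15-103 (adjusted p = 0.0138) among them, beside 1643 of all features (10.04%), so the members' share was below that of all features. The added genotype by week term called 0 members by edgeR, DESeq2 and limma, beside 0%, 0.0122% and 0.0183% of all features. By edgeR 26 members (18.6%) had an unadjusted p under 0.05, beside 3.15% of all features.

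Some segments were high in a single library. Among those with at least 50 counts in their highest library, Igkv6-14 had the widest gap, with 159 counts in the Oscar-/- DMM library of 4 weeks and 3 to 27 elsewhere (4.97 times as high in CPM as the next). Igkv1-88 had 65 counts in the Oscar-/- sham library of 4 weeks and 5 to 21 elsewhere (3.78 times). Igkv12-41 had 142 counts in the WT DMM library of 4 weeks and 8 to 52 elsewhere (2.92 times). Ighv1-9 had 154 counts in the Oscar-/- DMM library of 4 weeks and 12 to 46 elsewhere (2.72 times). All of these were libraries of 4 weeks, and each is a single library without a replicate. The limit of 50 counts is reached more easily at 4 weeks, where all V segments summed to 5308 to 9365 counts per library. At 2 weeks they summed to 2726 to 4588. Further segments that met this rule are not listed here.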

How the data were processed

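RNA of articular cartilage was sequenced by the authors as stranded, paired-end mRNA libraries, trimmed, aligned to GRCm38 with STAR 2.6.0a and quantified with RSEM 1.2.17 and an annotation named Gencode v22, while the submitters' processing notes (FastQC 0.11.8, STAR, RSEM) name a human build. The deposited expected counts are RSEM estimates that divide shared reads between genes, and the TPM the authors deposited are scaled by effective length to a fixed total per library. Identifiers without version were matched to GENCODE M21 (52489 matched). V exon sequences come from its transcripts.

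Rounded expected counts of 16363 features of every type with at least 40 summed counts were tested with edgeR 4.0.16 (quasi-likelihood, TMM, Benjamini-Hochberg over all features). Additive terms for genotype, surgery and week left 4 residual degrees of freedom, and the interaction model left 3. The SE given with edgeR was derived as the absolute log2 fold change divided by the square root of the F statistic. CPM are counts per 1000000 of TMM-scaled totals. Matched log2 differences of single segments added 0.5 to each count. Alternatives used DESeq2 1.42.0, limma 3.58.1 on log2(TPM + 1), other scalings and filters and each library left out, and the fits were tested on simulated data (biopython 1.88, scipy 1.17.1, numpy 2.4.6 and pandas 2.3.3 under Python 3.11.15, edgeR and the other fits under R 4.3.3). Binomial (exact Clopper-Pearson) and Poisson intervals and floors cover counting error alone.

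The members and lists were chosen with earlier results of these data known. Named were the 6 segments of highest mean share per locus, leading segments of each library, up to 10 called segments of lowest p, the 10 with at least 50 counts and the largest gap to the next library, all Iglv segments, Ighv5-2, the constant region genes and up to 4 leading genes of each other list. Ighv11-2, Igkv14-126, Igkv12-38, the segments outside this rule that are listed beside a count or a library pair, and Cr2, Irf4 and Mzb1 were named after their values were seen. Promoter motifs were not analysed here.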

Additional observations from a re-analysis of the deposited data

How the results depend on the processing

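For 4 against 2 weeks, the 24 calls (17.1% of the members) stood beside 6.84% of all features. They became 53 with limma on log2(TPM + 1) (37.9%, beside 14.6% of all features), with 23 of the 24 shared. DESeq2 made 31 (22.1%, beside 6.97%), with 20 shared and no adjusted p for 28 segments. Library totals alone gave 33 (23.6%, beside 10.1%). DESeq2 size factors gave 24 (17.1%, beside 6.81%) and a minimum of 10 summed counts 24 (13.4%, beside 5.46%). With at least 10 counts in at least 4 libraries 19 were called (18.1%, beside 7.52%), and with the robust fit 23 (16.4%, beside 6.96%). With a library left out 11 to 24 were called, beside 2.02% to 5.71% of all features. In all of these 0 lower calls were made. For the constant region and B lineage lists the 18 calls ranged from 7 to 19 with a library left out (7 without the Oscar-/- DMM library of 2 weeks, 8 without the WT sham library of 4 weeks and 10 without the WT DMM library of 2 weeks). Oscar-/- against WT went from 0 calls to 2 with DESeq2 (Ighv11-2 and Igkv4-59, 1.43% of the members, beside 0.0978% of all features). Limma called 1 (Ighv11-2, 0.714%, beside 0.0367%). With a library left out 0 to 1 were called (Igkv4-55, higher, without the Oscar-/- DMM library of 2 weeks, 0.714%, beside 0.0367%). DMM against sham gave 0 to 1 (Igkv15-103, lower, without the Oscar-/- DMM library of 4 weeks, 0.714%, beside 0.403%). The interaction gave 0 to 8 (5.71%, beside 10.04%, for the 8 without the WT sham library of 4 weeks). Among the summed differences, lambda for genotype turned to 0.073 without the leading segment. Differences smaller than their SD also changed sign. Heavy for genotype was -0.087 without either DMM library of 4 weeks, -0.0017 in TPM, -0.015 with totals without hemoglobin and -0.050 divided by constant region counts. Kappa for genotype was -0.076 without either DMM library of 4 weeks, and kappa for DMM -0.066 without either Oscar-/- library of 4 weeks and -0.037 divided by constant region counts. Without it the lambda differences were 0.30 for DMM and 0.18 for week. Lambda for week was 0.43 in TPM and 0.37 with totals without hemoglobin. Divided by constant region counts, week differences were 0.31 for heavy, 0.12 for kappa and 0.34 for lambda, and DMM differences 0.12 for heavy and 0.0094 for lambda, an alternative chosen after seeing the data. The causes were not tested. With library totals alone the median of all features moved to 0.13 for week and -0.16 for the interaction, and with limma to 0.20 and -0.23. Counts under 10 per library limit single segments, for which the median SE was 0.38, against 0.12 over all features. No fit with a replicate block was made, since the labels give no replicate numbers. The matched pairs are libraries that share the other 2 of the 3 factors, which the additive fit holds as terms.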

Other observations

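Isotype use beside the V segments varied between single libraries, and these values were chosen after they were seen. Ighg3, the constant region of IgG3, had 13, 19 and 13 counts in the WT sham, WT DMM and Oscar-/- DMM libraries of 2 weeks and 356 in the Oscar-/- sham library of 2 weeks, and 333, 493, 179 and 498 at 4 weeks with WT before Oscar-/- and sham before DMM. It made up 3.02% of the heavy constant counts in the Oscar-/- sham library of 2 weeks, from 0.0716% to 0.102% in the other 2-week libraries and from 0.934% to 2.51% at 4 weeks. Ighd, the constant region of IgD, held from 5.24% to 6.69% of the heavy constant counts at 2 weeks and from 3.39% to 5.15% at 4 weeks, with no overlap.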
